A study of Mus musculus with 26 samples.

Results

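The Wnt genes described here number 7 of the 18193 genes measured on the arrays. They are the secreted ligands Wnt8a and Wnt3, and Axin2, Sp5, Cdx1, Lef1 and Nkd1, which are known target genes of beta-catenin. They were chosen by name, with earlier results of these data known. Counts of them called, set beside the share of all genes, therefore only describe these data. All 7 were found, each with at least 1 probe set annotated to that gene alone. For a gene with several such probe sets the one with the highest mean over the 26 arrays was used. The other probe sets served as a check.

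In the canonical Wnt pathway a secreted Wnt protein binds a Frizzled receptor and its Lrp5 or Lrp6 partner, and this stops the destruction complex of Axin, Apc, casein kinase and the kinase GSK3 from marking beta-catenin for degradation. Beta-catenin that escapes enters the nucleus, where it acts through DNA-binding factors of the Tcf and Lef family. Axin2 and Nkd1 are targets that act back on the pathway as inhibitors, Lef1 is both a target and one of the DNA-binding factors, and Sp5 and Cdx1 encode transcription factors. In mouse embryonic stem cells, inhibition of GSK3 is widely used to keep cells in the naive state, and Wnt3 and Wnt8a are known for their expression around the start of gastrulation in the mouse embryo.

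Mouse embryonic stem cells of 3 Prdm14 genotypes were profiled on 1-colour Affymetrix arrays after culture in different media, with 2 arrays in each of 13 groups. The genotypes were Prdm14(-/-)+AGP14, which is the knockout carrying a pPyCAG-AGP14 transgene for Avitag-EGFP-Prdm14 (called transgene cells below), Prdm14(-/-) and Prdm14(+/+). All were male C57BL/6 cells on mouse embryonic fibroblast (MEF) feeders. The question addressed here is how the 7 genes differed between 2i medium, which held a GSK3 inhibitor, and serum media, between genotypes, and in epiblast-like cells.

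The media were as follows. 2i medium was N2B27 with 0.4 uM of the MEK inhibitor PD0325901, 3 uM of the GSK3 inhibitor CHIR99021 and 1000 units per ml of LIF, and the 3 groups grown in it were the only ones whose labels give CHIR99021. Serum medium, with 20% fetal bovine serum plus LIF, was used for 2 days. The same 3 genotypes were also kept in serum lacking LIF, and the knockout and the wild type in serum with LIF and 0.4 uM PD0325901. Every serum medium differed from 2i in serum and basal medium as well as in CHIR99021. A part of CHIR99021 alone therefore cannot be told apart, also where both media held MEK inhibitor. Epiblast-like cells (EpiLC) at day 3 and day 2 came from a different Prdm14(+/+) line with Blimp1-mVenus and Stella-ECFP transgenes, and for them the sources used here give no medium. The labels do not say whether the 2 arrays of a group came from separate cultures, so every p-value below covers only array-to-array spread, which may be technical.

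Some properties of the arrays bear on the results. The array medians lay between 4.86 and 5.01 on the deposited log2 scale, where base 2 was inferred from the highest value of 13.89. Prdm14 itself went against the knockout label in the media with MEK inhibitor: its signal averaged 11.3 in knockout-labelled and 9.18 in wild-type 2i arrays, and 10.7 in knockout-labelled and 9.26 in wild-type arrays with serum and MEK inhibitor. Whether its probe set lies in the deleted part of the gene is not given, and if it lies outside, it checks nothing. In transgene cells the Prdm14 signal averaged 9.205 in 2i, 6.375 in serum and 4.99 without LIF. Wild-type cells were at 9.175, 6.63 and 4.725 in the same order. Whether the probe set reads the transgene is not given either. Directions between genotypes therefore rest on the labels. The arrays also fell into 2 sets by the signal of the added control RNA lys: 14 arrays at 6.77 to 7.38 (transgene cells in 2i, all serum arrays and all arrays without LIF) and 12 arrays at 13.4 to 13.6 (knockout-labelled and wild-type cells in 2i and in serum with MEK inhibitor, and EpiLC). A comparison across these 2 sets cannot be told apart from the difference between the sets, and tests of this kind are named below. Orders of levels, ranges and correlations over all groups also run across the sets. The general pluripotency markers averaged 11.0 to 11.9 in every group, while markers of cell state moved with the medium: the 9 naive markers averaged from 6.81 (EpiLC at day 2) to 11.1 (wild-type 2i), and the 7 epiblast markers from 6.41 (transgene 2i) to 10.8 (EpiLC at day 2). The 9 naive markers include Prdm14 itself.

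The promoters of Sp5 and Axin2, which were highest in 2i, and of Lef1, which was not, are shown because they differ in matches to CTTTGA, the core of the sequence that Tcf and Lef factors bind. Each window runs from 250 bases before to 50 bases after a RefSeq start (GRCm38.p6), is given 5′ to 3′ on the gene's strand, and carries matches on either strand (CTTTGA or TCAAAG) in capitals. Of 32817 promoter windows of this length, 16.0% held the core and 3.73% the longer form CTTTGAT or its reverse complement.
Sp5, plus strand, chr2:70474673-70474972: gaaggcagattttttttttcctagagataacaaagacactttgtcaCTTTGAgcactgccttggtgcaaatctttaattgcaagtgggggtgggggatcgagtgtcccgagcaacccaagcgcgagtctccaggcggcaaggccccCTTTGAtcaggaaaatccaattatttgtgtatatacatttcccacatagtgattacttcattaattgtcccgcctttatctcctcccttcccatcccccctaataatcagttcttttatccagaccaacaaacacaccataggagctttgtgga
Axin2, plus strand, chr11:108920099-108920398: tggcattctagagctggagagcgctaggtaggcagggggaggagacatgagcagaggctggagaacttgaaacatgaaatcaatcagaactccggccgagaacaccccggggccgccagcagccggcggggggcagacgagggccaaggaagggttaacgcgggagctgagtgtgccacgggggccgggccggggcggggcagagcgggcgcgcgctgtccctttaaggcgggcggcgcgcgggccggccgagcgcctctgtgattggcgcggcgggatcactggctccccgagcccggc
Lef1, plus strand, chr3:131110047-131110346: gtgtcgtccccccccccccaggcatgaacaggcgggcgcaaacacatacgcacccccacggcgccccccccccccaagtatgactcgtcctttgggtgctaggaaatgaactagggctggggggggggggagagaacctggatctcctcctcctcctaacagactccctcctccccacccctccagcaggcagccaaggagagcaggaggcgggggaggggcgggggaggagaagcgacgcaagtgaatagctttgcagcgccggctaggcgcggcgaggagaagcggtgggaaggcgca
Lef1, plus strand, chr3:131156044-131156343: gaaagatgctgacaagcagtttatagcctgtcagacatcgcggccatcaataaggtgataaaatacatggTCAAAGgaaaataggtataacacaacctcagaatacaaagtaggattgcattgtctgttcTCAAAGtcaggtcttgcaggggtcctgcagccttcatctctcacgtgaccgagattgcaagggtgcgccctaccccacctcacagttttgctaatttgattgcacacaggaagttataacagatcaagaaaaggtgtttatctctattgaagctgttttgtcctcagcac
The Sp5 window, at the gene on chromosome 2 (70474923 to 70477726), held 2 core matches, which began 204 and 104 bases upstream of the start, and 1 of them was the longer form. The Axin2 window, within the gene on chromosome 11 (108917828 to 108950783), held none. It lies downstream of the first base of the gene, and the bases around that first base were not searched. Lef1 has 4 annotated windows within its gene on chromosome 3 (131110297 to 131224357). Only the most downstream of these 4 held matches, 2 of them, 180 and 120 bases upstream of its start. The windows of Nkd1 (chromosome 8) and Wnt3 (chromosome 11) held none, and the promoters of Cdx1 and Wnt8a were not used here. The Nkd1 window, too, lies inside its gene, downstream of its first base. A match is a run of letters, and its presence or absence says nothing about binding in these cells.

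Across the 26 arrays, Axin2, Sp5 and Cdx1 were highest in the 2i groups, and Lef1 and Nkd1 were not. Axin2 was lowest in EpiLC, and so was Sp5, while for Cdx1 the groups outside 2i averaged between 2.12 and 3.62. Wnt8a had another order, with its highest signals in serum without LIF. Wnt3 stayed below 4 in every array and its order could not be resolved.

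**Figure D1:**
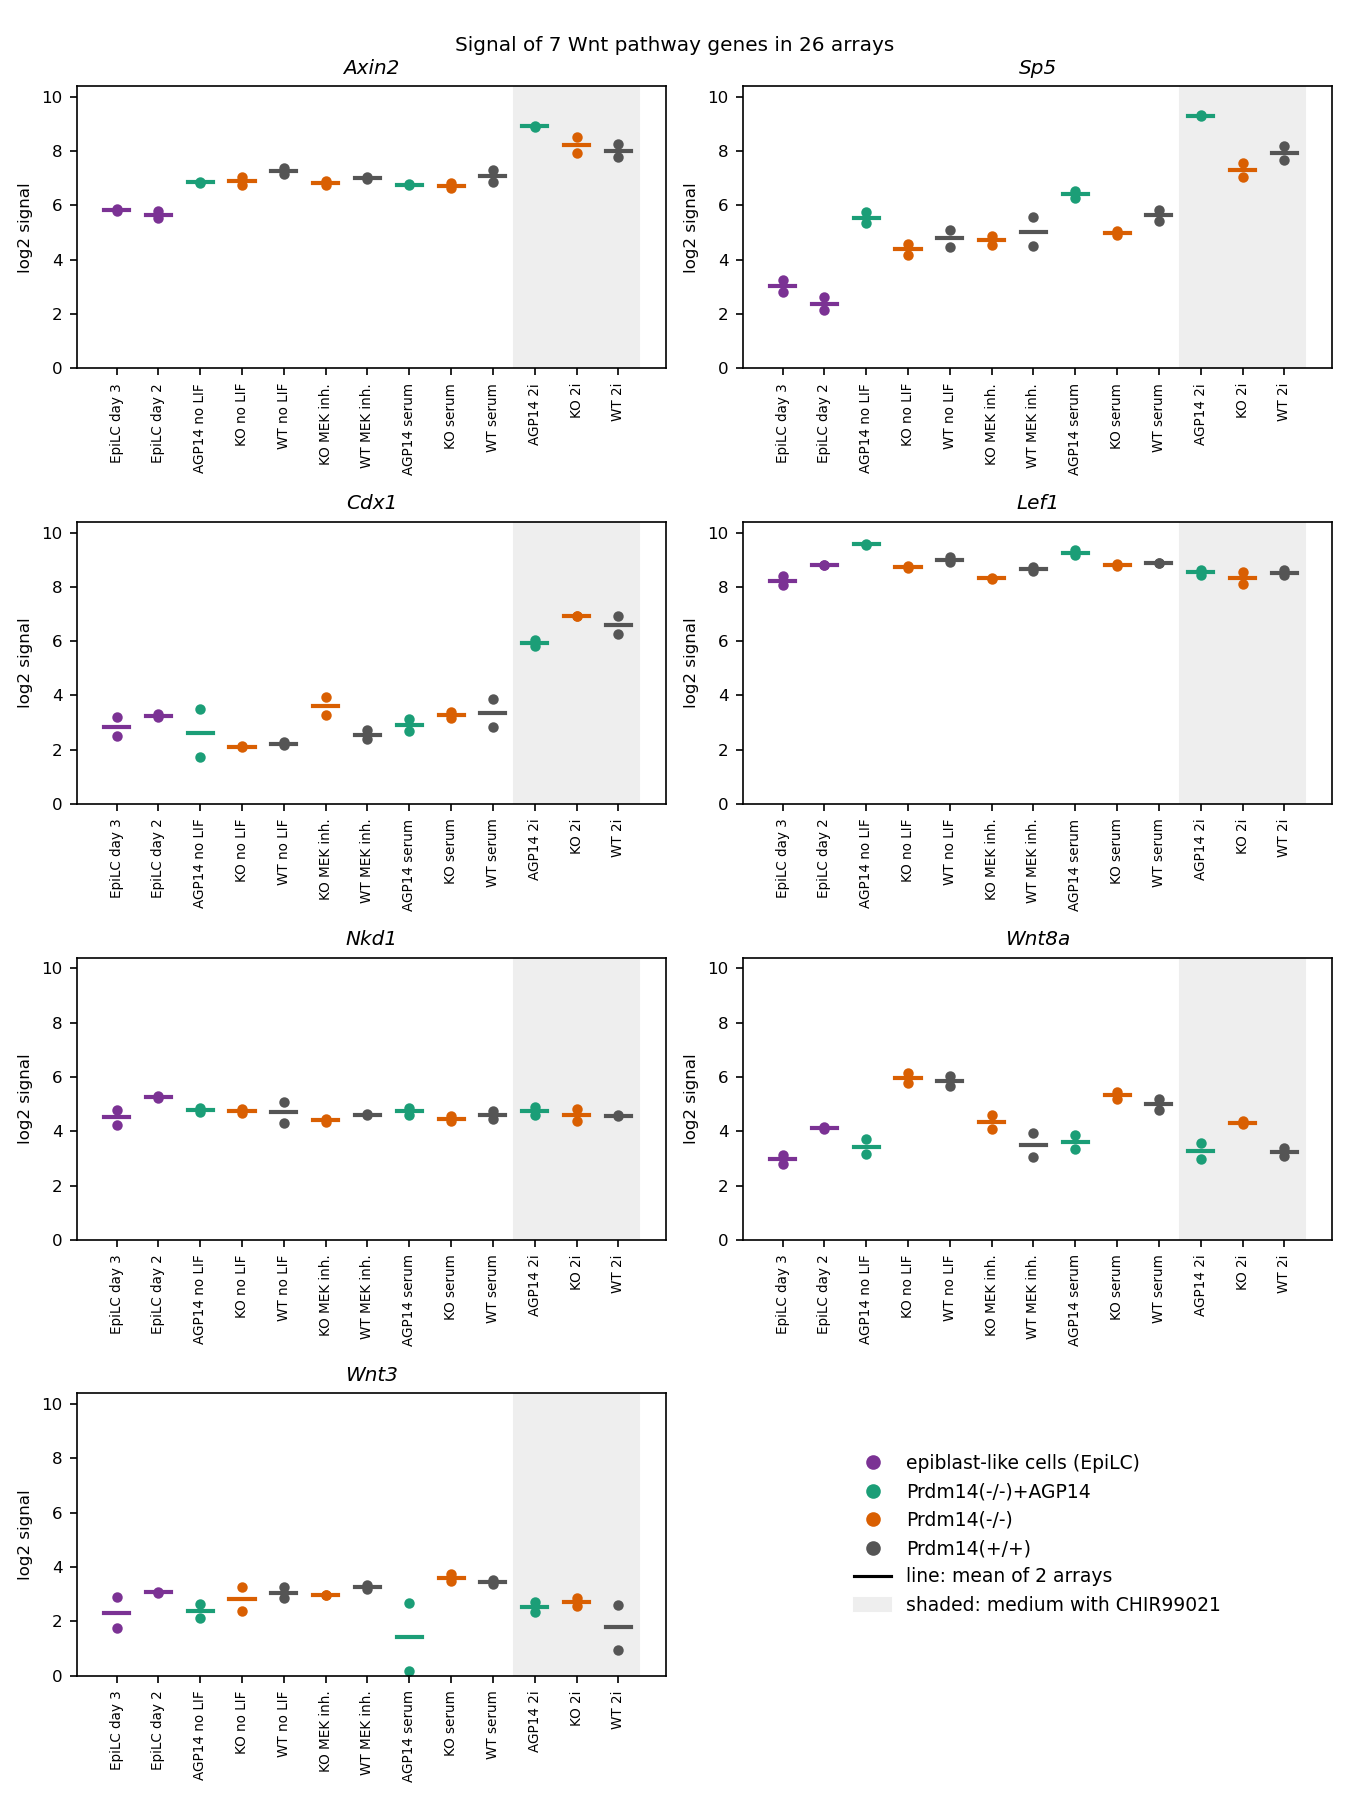
Log2 signal (y axis) of each of the 7 genes in all 26 arrays, by group (x axis). Points are single arrays and lines the mean of 2 arrays. The shaded groups had CHIR99021 and no serum in their medium. Axin2, Sp5 and Cdx1 sit highest in the shaded groups, Wnt8a is highest in knockout-labelled and wild-type cells without LIF, and Lef1 and Nkd1 stay in a narrow band.

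Axin2 encodes a scaffold of the destruction complex and is a negative feedback target of the pathway. Its signal in transgene cells was 6.74 and 6.78 in serum, against 8.92 and 8.90 in 2i. In knockout-labelled cells it was 6.91 and 6.75 in serum with MEK inhibitor and 6.81 and 6.63 in serum, against 8.51 and 7.94 in 2i. In wild-type cells it was 7.04 and 6.96 in serum with MEK inhibitor and 7.31 and 6.87 in serum, against 7.77 and 8.27 in 2i. No array of a serum medium reached a 2i array of its own genotype. The difference was -2.15 ± 0.19 in transgene cells (serum minus 2i, SE, n = 2 each, adjusted p = 5.05e-07 by limma's moderated test), a 4.44-fold lower signal. With MEK inhibitor present in both media it was -1.40 ± 0.19 in knockout-labelled cells (adjusted p = 5.88e-05, limma) and -1.02 ± 0.19 in wild-type cells (adjusted p = 0.00133, limma). When all probe sets of a gene were averaged the wild-type difference with MEK inhibitor was -0.57 and lost its call (adjusted p = 0.235, limma), and with the arrays of these 2 groups alone it was also lost (adjusted p = 0.0851, limma). The other Axin2 probe set was at 3.24 to 5.10 over all arrays and went in the opposite direction in 2 of the 8 comparisons in which Axin2 was called.

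Sp5, a zinc-finger transcription factor of the Sp family, whose promoter with 2 core matches is printed above, had the widest range of the 7 genes. In transgene cells it was at 6.52 and 6.29 in serum, against 9.32 and 9.29 in 2i. In knockout-labelled cells it was at 4.89 and 4.53 in serum with MEK inhibitor and at 4.91 and 5.05 in serum, against 7.57 and 7.04 in 2i. The values in wild-type cells were 5.56 and 4.51 in serum with MEK inhibitor and 5.84 and 5.43 in serum, against 7.69 and 8.20 in 2i. In each genotype the serum arrays lay well below the 2i arrays, by more than the spread within either group. Sp5 fell by 2.90 on the log2 scale in transgene cells (SE 0.32, adjusted p = 5.05e-06), and by 2.60 in knockout-labelled (adjusted p = 2.42e-05) and 2.91 in wild-type cells (adjusted p = 9.1e-06) with MEK inhibitor in both media, all by limma. These are 6.04-fold to 7.52-fold lower signals.

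Cdx1, a caudal-type homeobox factor that patterns the posterior body axis, was high in 2i and low everywhere else. Its signal in transgene cells was 2.68 and 3.12 in serum, against 6.04 and 5.83 in 2i. In knockout-labelled cells it was 3.28 and 3.95 in serum with MEK inhibitor and 3.38 and 3.17 in serum, against 6.94 and 6.91 in 2i. In wild-type cells it was 2.41 and 2.71 in serum with MEK inhibitor and 2.85 and 3.88 in serum, against 6.26 and 6.92 in 2i. The lowest 2i array (5.83) lay above the highest array of any other medium (3.95). The differences were -3.04 ± 0.45 in transgene cells (adjusted p = 0.000108), and with MEK inhibitor in both media -3.31 ± 0.45 in knockout-labelled (adjusted p = 6.1e-05) and -4.03 ± 0.45 in wild-type cells (adjusted p = 1.19e-05, SE, n = 2 each, limma). The wild-type arrays with MEK inhibitor lay below the lower quartile of all probe sets (3.20 to 3.28 over the arrays), as did several others outside 2i, so these sizes are uncertain. These 3 Cdx1 calls held under every alternative that was run.

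The 2 remaining targets did not follow this order. Lef1 was at 9.36 and 9.17 in serum, against 8.64 and 8.45 in 2i, in transgene cells, so that the groups did not overlap and serum was the higher (0.72 ± 0.13, adjusted p = 0.000648, limma). With MEK inhibitor in both media its differences were -0.03 in knockout-labelled cells (95% interval -0.30 to 0.25) and 0.13 in wild-type cells (95% interval -0.14 to 0.40), and neither passed the test. Nkd1, which encodes a Dishevelled-binding inhibitor of the pathway, lay between 4.24 and 5.30 in all 26 arrays. Its differences against 2i were -0.20 to 0.04, none past the test. This rests on a dim probe set, and the further Nkd1 probe sets, dimmer still, did not all stay flat. In transgene cells a further probe set was at 3.88 and 4.07 in serum, against 2.24 and 2.05 in 2i (1.83). The others differed by -0.395 and 0.135 there, and these differences were not tested.

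The ligands showed another pattern. Wnt8a did not pass the test between serum and 2i in transgene cells, with 3.85 and 3.36 in serum, against 3.58 and 2.98 in 2i (0.33 ± 0.32, adjusted p = 0.567, limma). It was also not called with MEK inhibitor in both media, at 4.61 and 4.08 in serum with MEK inhibitor, against 4.26 and 4.36 in 2i, in knockout-labelled cells, and at 3.92 and 3.06, against 3.38 and 3.10, in wild-type cells. Serum without MEK inhibitor gave 5.44 and 5.20 in knockout-labelled and 5.19 and 4.78 in wild-type cells, which lay above every 2i array of the same genotype. Those 2 differences from 2i were called (1.01, adjusted p = 0.0186, and 1.75, adjusted p = 0.000279, limma), but they run across the control-signal sets. The wild-type 2i arrays lay near the lower quartile of all probe sets (3.20 to 3.28 over the arrays), so the size of the wild-type difference is uncertain. The knockout-labelled call was lost without either 2i array or without the first serum array (adjusted p = 0.0867, 0.0583 and 0.113). Wnt3 was called once against 2i, in wild-type serum (1.67, adjusted p = 0.0492, limma), and this rested on 1 wild-type 2i array at 0.95, the other being at 2.60: without it the difference was 0.84 (adjusted p = 0.444).

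The 5 comparisons of a serum medium with 2i share the 2i arrays of each genotype, so their calls are not independent. The genes were also chosen with earlier results of these data known, so the counts below only describe. Within 1 control-signal set, serum minus 2i in transgene cells called 4 of the 7 genes, where 18.2% of all genes were called: 1 was higher (9.97% of all genes) and 3 lower (8.22%). Serum with MEK inhibitor minus 2i called 3 of the 7 in knockout-labelled cells, against 13.2% of all genes (6.59% lower), and 3 of the 7 in wild-type cells, against 12.5% (7.06% lower), and each was lower. The same 3 genes, Axin2, Sp5 and Cdx1, made up each of these sets of lower calls. Across the sets, serum minus 2i called 5 of 7 in knockout-labelled cells (35.8% of all genes) and 6 of 7 in wild-type cells (34.6%), and Axin2 (-1.50 and -0.93), Sp5 (-2.33 and -2.31) and Cdx1 (-3.65 and -3.23) were again lower. The wild-type Axin2 call across the sets was lost when probe sets were averaged (-0.46, adjusted p = 0.232). The median difference of all genes in these comparisons lay between -0.02 and 0.01. The interaction terms, which test whether the change of medium differed between genotypes, called 0 of 42 gene and term pairs in limma (3 at an unadjusted p under 0.05), where the share of all genes called was 2.97% (serum minus 2i, knockout-labelled minus wild-type cells), 0.0605% (serum with MEK inhibitor minus 2i, the same genotypes), 0.231% (serum with minus without MEK inhibitor, the same), 0.00% (LIF withdrawal, the same), 14.2% (serum minus 2i, transgene minus knockout-labelled cells) and 0.0770% (LIF withdrawal, the same). The terms for serum minus 2i and for serum with minus without MEK inhibitor involve both control-signal sets. In the transgene term for serum minus 2i only the knockout-labelled change runs across them.

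**Figure D2:**
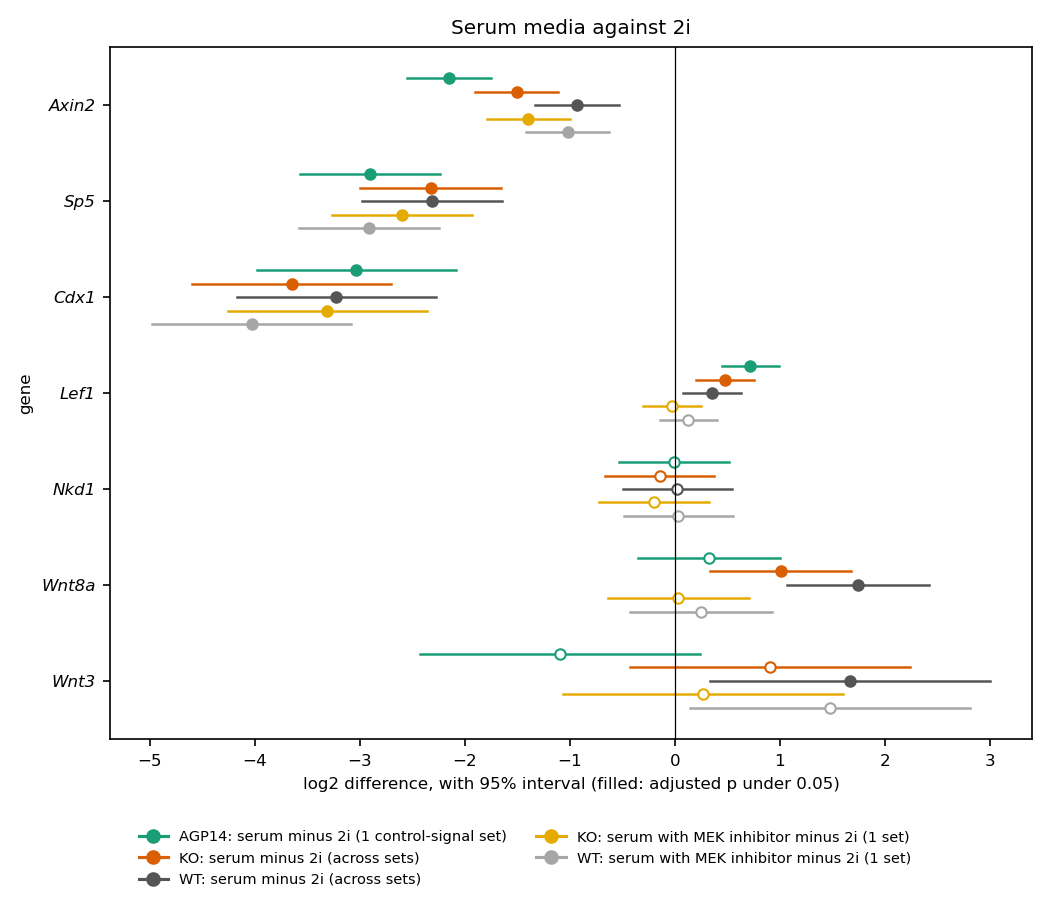
Log2 difference (x axis) of each gene (y axis) between a serum medium and 2i; points are limma estimates from 2 arrays a group, bars 95% intervals, and filled points passed an adjusted p under 0.05. Axin2, Sp5 and Cdx1 lie left of 0 in all 5 comparisons, whether these lie within 1 control-signal set or across both.

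The signal of feeder fibroblast markers moved with the 2i medium. Of 26 measured feeder fibroblast markers, 16 were called lower and 2 higher in transgene serum than in 2i arrays. Of the same markers, 18 were lower and 2 higher in knockout-labelled cells in serum with MEK inhibitor than in 2i, and 17 were lower and 3 higher in wild-type cells. Their mean signal per array was 7.16 to 7.17 in serum and 8.29 to 8.48 in 2i arrays of transgene cells, and no marker was at 0 in any array. In bulk RNA, fewer feeder cells and less feeder RNA per cell cannot be told apart. The signal also does not tell which cells it came from. Over the 13 group means the feeder level correlated with Axin2 (r = 0.87), Sp5 (r = 0.861) and Cdx1 (r = 0.733), the 13 points sharing their media. Over the 10 groups outside 2i, EpiLC included, r was 0.775 for Axin2, 0.748 for Sp5 and -0.128 for Cdx1. Over the 8 groups in serum media alone r was -0.345 for Axin2, -0.076 for Sp5 and 0.0948 for Cdx1.

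The part of the feeders in the 2i differences was not tested, and some direct values are these. Between serum with and without MEK inhibitor, 19 of the 26 markers were higher and 1 lower in wild-type cells, a comparison across the control-signal sets, while Axin2 differed by -0.09, Sp5 by -0.60 and Cdx1 by -0.81, none past the test. In 2i, transgene cells against either other genotype is also a comparison across the control-signal sets. Transgene 2i arrays had lower feeder means (8.29 and 8.48) than knockout-labelled (8.76 and 8.82) and wild-type 2i arrays (8.86 and 8.87), and 10 of the 26 markers were lower and 0 higher than in knockout-labelled cells. In the same arrays Axin2 and Sp5 were higher than in either other genotype, and Cdx1 was at 6.04 and 5.83, below every 2i array of the other genotypes, with differences of -0.99 from knockout-labelled (adjusted p = 0.126) and -0.66 from wild-type cells (adjusted p = 0.33, limma) that did not pass the test. Markers of cell state moved as well. Of 7 epiblast markers, 7 were higher in transgene serum than in 2i arrays, and with MEK inhibitor 5 were higher in knockout-labelled and 6 in wild-type cells than in 2i. Of 9 naive markers, Prdm14 itself included, 3, 2 and 0 were lower in the same order and 0 were higher. Prdm14 averaged 6.375 in serum and 9.205 in 2i in transgene cells. Their part was not tested either.

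**Figure D3:**
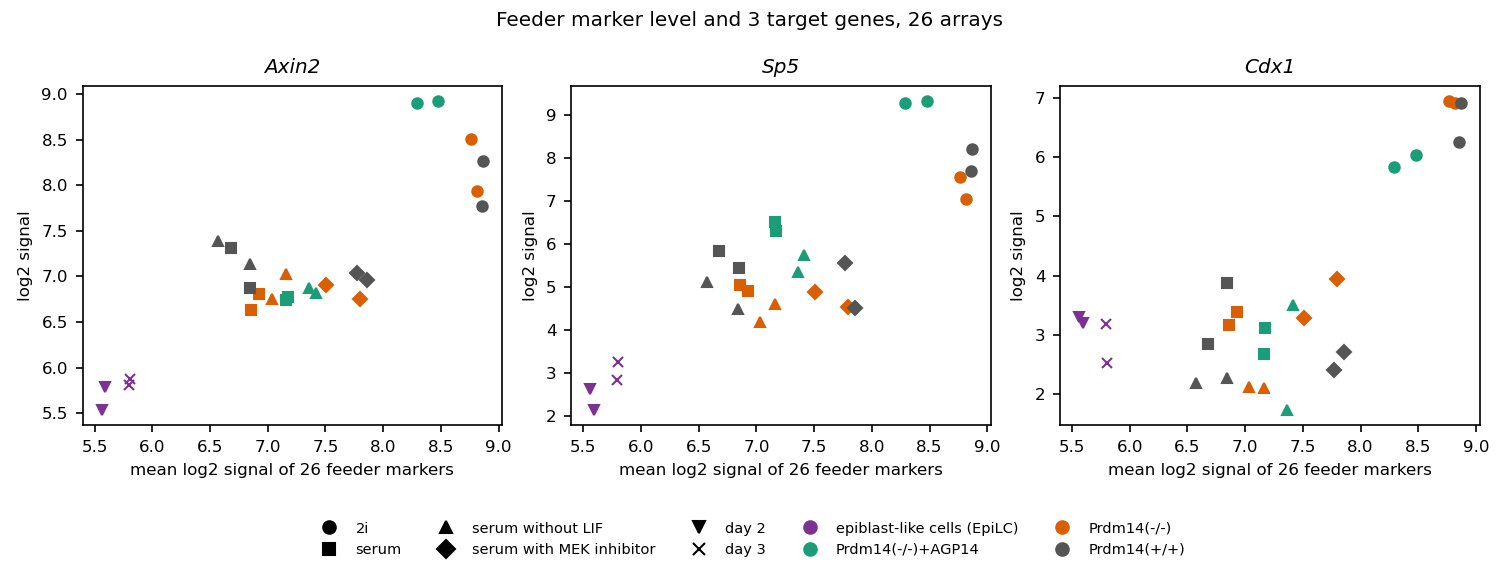
Log2 signal of Axin2, Sp5 and Cdx1 (y axes) against the mean log2 signal of 26 feeder markers (x axes) in 26 arrays; shapes are media and colours are genotypes. The 2i arrays stand at the upper right, and among them the transgene arrays have the highest Axin2 and Sp5 and the lowest Cdx1, beside a feeder mean under 8.5. These transgene arrays belong to the other control-signal set.

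Within serum media few of the 7 genes moved. Wnt8a was lower with MEK inhibitor than without, at 3.92 and 3.06 against 5.19 and 4.78 in wild-type cells (-1.50 ± 0.32, adjusted p = 0.00186) and at 4.61 and 4.08 against 5.44 and 5.20 in knockout-labelled cells (-0.97 ± 0.32, adjusted p = 0.0327, limma). Lef1 was lower with the inhibitor in knockout-labelled cells (-0.51 ± 0.13, adjusted p = 0.00763, limma). These 3 calls, 1 of 7 genes in wild-type cells (25.4% of all genes) and 2 of 7 in knockout-labelled cells (24.5%), run across the control-signal sets. The wild-type Wnt8a call was lost without the second array with inhibitor (-1.06, adjusted p = 0.0537), and the Lef1 call without the first knockout-labelled serum array (-0.46, adjusted p = 0.0637). The knockout-labelled Wnt8a call was lost without either serum array or without the second array with inhibitor (adjusted p = 0.171, 0.07 and 0.257), and both Wnt8a calls were lost when only the arrays of the 2 groups were fitted (adjusted p = 0.0679 and 0.0726).

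Withdrawal of LIF, a comparison within 1 control-signal set, called none of the 7 genes in limma, where 1.50% of all genes were called in wild-type, 1.10% in knockout-labelled and 0.302% in transgene cells. At an unadjusted p under 0.05 there were 3 of 7 in wild-type, 1 of 7 in knockout-labelled and 2 of 7 in transgene cells. The differences included those of Cdx1 (-1.16 in knockout-labelled and -1.14 in wild-type cells), Sp5 (-0.85 in transgene and -0.84 in wild-type cells) and Wnt8a (0.87 in wild-type cells). Sp5 without LIF stood at 5.75 and 5.35 in transgene, 4.59 and 4.19 in knockout-labelled and 5.11 and 4.48 in wild-type cells. Without LIF, Wnt8a stood at 6.13 and 5.78 in knockout-labelled and 6.03 and 5.68 in wild-type cells, above the serum arrays of the same genotypes. Cdx1 then stood at 3.50 and 1.74 in transgene, 2.11 and 2.12 in knockout-labelled and 2.19 and 2.27 in wild-type cells.

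Knockout-labelled and wild-type cells, compared in 4 media within 1 control-signal set each, differed in 1 of 28 gene and medium pairs. Wnt8a was at 4.26 and 4.36 in knockout-labelled and 3.38 and 3.10 in wild-type cells in 2i (1.07 ± 0.32, adjusted p = 0.0428, limma), where 9.15% of all genes were called. The groups did not overlap, but the call was lost without any one of the 4 arrays (adjusted p = 0.112 to 0.168), with these 4 arrays alone (0.211) and within the control-signal set (0.105). In the other media 0 of 7 genes were called in limma, where 4.17% (serum), 4.19% (without LIF) and 4.08% (serum with MEK inhibitor) of all genes were, and over all 4 media the number at an unadjusted p under 0.05 was 4 of 28. The Wnt8a difference was 0.34 in serum, 0.85 in serum with MEK inhibitor and 0.10 without LIF. Sp5 was -0.64, -0.66, -0.41 and -0.33 in 2i, in serum, without LIF and with MEK inhibitor in serum, with none past the test.

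Transgene cells differed from knockout-labelled cells mainly in Sp5, Wnt8a and Lef1. Against wild-type cells the Sp5 difference was 0.77 in serum (adjusted p = 0.154) and 0.755 without LIF (adjusted p = 0.146, limma). Neither passed the test, nor did Lef1 against wild-type cells in serum (0.38, adjusted p = 0.0849, limma). The values against knockout-labelled cells follow. Sp5 was at 6.52 and 6.29 in transgene serum arrays, against 4.91 and 5.05 in knockout-labelled ones, a 2.69-fold higher signal (1.43 ± 0.32, adjusted p = 0.00679, limma). Without LIF it was at 5.75 and 5.35, against 4.59 and 4.19 (1.16 ± 0.32, adjusted p = 0.0195). In neither medium did the groups overlap. Both calls depended on single arrays, however: in serum the adjusted p was 0.064 without the first transgene array and 0.0588 without the first knockout-labelled array, and without LIF it was 0.167 without the first transgene array and 0.159 without the second knockout-labelled array.

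Wnt8a had the reverse direction. In serum it was at 3.85 and 3.36 in transgene cells, against 5.44 and 5.20 in knockout-labelled cells (-1.72 ± 0.32, adjusted p = 0.00176, limma). Without LIF it was at 3.72 and 3.15, against 6.13 and 5.78 (-2.52 ± 0.32, adjusted p = 2.88e-05), a 5.74-fold lower signal. The same held against wild-type cells, which were at 6.03 and 5.68 without LIF (-2.42 ± 0.32, adjusted p = 0.000149), and the comparison with wild-type serum arrays was also called (-1.38 ± 0.32, adjusted p = 0.0165). The wild-type serum comparison shares its transgene arrays with the one against knockout-labelled cells and was lost without the second transgene array (-1.14, adjusted p = 0.155) or without the first wild-type array (-1.18, adjusted p = 0.199). The other 3 Wnt8a calls held under every alternative that was run. The transgene signals lay near the lower quartile of all probe sets (3.20 to 3.28 over the arrays), so the sizes of these differences are uncertain.

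Lef1, like Wnt8a, differed most without LIF, in the opposite direction: 9.59 and 9.54 in transgene cells, against 8.78 and 8.70 in knockout-labelled cells (0.82 ± 0.13, adjusted p = 0.000253, held under every alternative) and 8.91 and 9.10 in wild-type cells (0.56 ± 0.13, adjusted p = 0.0103, limma). The wild-type comparison was lost without either transgene array or without the first wild-type array (adjusted p = 0.0584 to 0.151). In serum Lef1 was at 9.36 and 9.17 in transgene cells, against 8.86 and 8.77 in knockout-labelled cells (0.45 ± 0.13, adjusted p = 0.0319), a call lost without any one of the 4 arrays (0.0613 to 0.237) and when probe sets were averaged (0.12). Wnt3 was called lower in transgene serum arrays (-2.18, adjusted p = 0.0333), with 0.18 and 2.68 against 3.48 and 3.74 in knockout-labelled arrays. That call rested on the array at 0.18, and without it the difference was -0.93 (adjusted p = 0.457).

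In 2i the transgene arrays belong to the other control-signal set, so genotype and set cannot be told apart. There Axin2 (8.92 and 8.90) was above knockout-labelled (8.51 and 7.94; 0.69 ± 0.19, adjusted p = 0.0121) and wild-type cells (7.77 and 8.27; 0.89 ± 0.19, adjusted p = 0.00193, limma). Sp5 (9.32 and 9.29) was 4.00-fold above knockout-labelled cells (2.00 ± 0.32, adjusted p = 0.000155) and also above wild-type cells (1.36 ± 0.32, adjusted p = 0.00402, limma). Without the first wild-type 2i array the adjusted p against wild type was 0.0504 for Axin2 and 0.0628 for Sp5. The Axin2 call against knockout-labelled cells was lost without either transgene array or without the second knockout-labelled array (adjusted p = 0.0599 to 0.214), and when probe sets were averaged (0.276). Wnt8a (3.58 and 2.98) was below knockout-labelled cells (-1.03, adjusted p = 0.0246), a call lost without the second transgene array or without either knockout-labelled array (adjusted p = 0.0731 to 0.231).

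Transgene against knockout-labelled cells thus called 4 of 7 genes in serum (10.5% of all genes) and 3 of 7 without LIF (13.3%), both within 1 set, and 3 of 7 in 2i (24.2%) across the sets. Transgene against wild-type cells called 1 of 7 in serum (6.96%), 2 of 7 without LIF (10.7%) and 2 of 7 in 2i (25.4%), with the same transgene arrays. In transgene serum cells 2 of 26 feeder markers were higher and 1 lower than in knockout-labelled cells, and 6 were higher and 0 lower than in wild-type cells. Without LIF 4 were higher and 1 lower than in knockout-labelled cells, while 15 were higher and 0 lower than in wild-type cells, and their part in the Lef1 and Wnt8a differences was not tested.

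**Figure D4:**
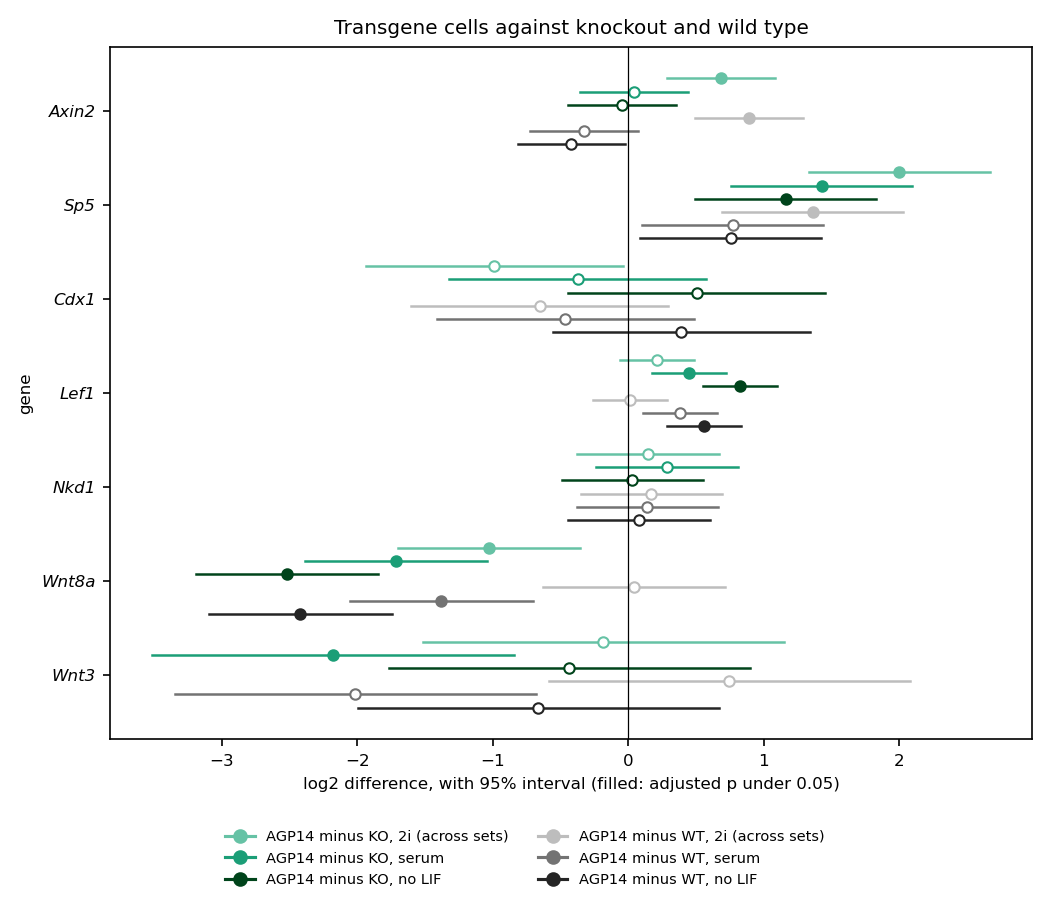
Log2 difference (x axis) of each gene (y axis) between transgene cells and knockout-labelled or wild-type cells in 3 media; points are limma estimates from 2 arrays a group, bars 95% intervals, and filled points passed an adjusted p under 0.05. Wnt8a lies left of 0 in serum and without LIF against both genotypes, and Sp5 lies right of 0 throughout. Against wild-type cells in serum and without LIF, Sp5 did not pass the test. The comparisons in 2i run across the control-signal sets.

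EpiLC had the lowest Sp5 and Axin2 of all groups. At day 2 Sp5 was at 2.61 and 2.14, against 7.69 and 8.20 in wild-type 2i arrays (-5.57 ± 0.32, adjusted p = 1.2e-10, limma). The EpiLC signal lay below the lower quartile of all probe sets (3.20 to 3.28 over the arrays), so the size of the difference is uncertain. Axin2 was at 5.54 and 5.79, against 7.77 and 8.27 (-2.35 ± 0.19, adjusted p = 1.09e-08), and Cdx1 at 3.30 and 3.20, against 6.26 and 6.92 (-3.34 ± 0.45, adjusted p = 7.46e-06). The 3 genes together were thus lower in every EpiLC array than in every wild-type 2i array. Wnt8a (0.88, adjusted p = 0.0367) and Nkd1 (0.68, adjusted p = 0.0374) were called higher, and both calls were lost without any one of the 4 arrays (adjusted p = 0.0579 to 0.181). Lef1 at 8.80 and 8.79 and Wnt3 at 3.09 and 3.05 did not pass the test. In all 5 of 7 genes were called where 38.3% of all genes were. EpiLC and the wild-type stem cells are different lines in different media, and of 26 feeder markers 22 were lower and 1 higher in EpiLC (mean per array 5.56 to 5.59, against 8.86 to 8.87), with their part in the result not tested.

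From day 2 to day 3 of EpiLC culture 3 of 7 genes were called lower, where 17.6% of all genes were called and 9.69% were called lower. Wnt8a was at 2.78 and 3.14 at day 3, against 4.10 and 4.14 at day 2 (-1.16 ± 0.32, adjusted p = 0.016, limma). Its day 3 signal lay below the lower quartile of all probe sets (3.20 to 3.28 over the arrays), so this size is uncertain. Lef1 was at 8.39 and 8.06, against 8.80 and 8.79 (-0.57 ± 0.13, adjusted p = 0.0042), and Nkd1 at 4.79 and 4.24, against 5.30 and 5.21 (-0.74 ± 0.25, adjusted p = 0.047). None of these pairs of groups overlapped. The Lef1 call was lost without the second day 3 array (-0.41, adjusted p = 0.0974). The Wnt8a call was lost without either day 2 array or without the first day 3 array (0.0729 to 0.122), and the Nkd1 call without either day 2 array or without the second day 3 array (0.129 to 0.387). With probe sets averaged the Nkd1 difference was -0.27 (adjusted p = 0.582), and its call was also lost under quantile normalization, the replicate block, the compared groups alone and 1 control-signal set alone (0.0517 to 0.0738). A further probe set of Nkd1 went in the opposite direction, by 0.71. Axin2 at 5.88 and 5.81, Sp5 at 3.24 and 2.82, Cdx1 at 2.52 and 3.19 and Wnt3 at 2.88 and 1.75 did not pass the test.

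Over the 13 group means the targets fell into unlike patterns. Axin2 and Sp5 had the most alike levels (r = 0.938), Cdx1 was close to both (0.736 with Axin2 and 0.735 with Sp5), and Lef1 ran against Cdx1 (-0.473). The ligands were alike to a smaller degree (r = 0.585). In the order of Sp5 levels each step down from transgene to wild-type to knockout-labelled 2i cells, and on to transgene and wild-type serum cells, was larger than the pooled SD within groups. For Axin2 the transgene 2i group stood beyond the other 2i groups and these beyond every other medium, while the knockout-labelled and wild-type 2i groups did not differ beyond their spread. For Cdx1 the 3 groups in 2i were separated from the next group by 2.32, and the groups below did not differ from their neighbours beyond their spread. For Wnt3, with a pooled SD of 0.67, no neighbouring groups did.

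Among 4563 genes with a group mean of at least 7 and a span of at least 1, those most like Axin2 over the 13 groups were C77080 (r = 0.947), Slc30a2 (0.943) and Col6a3 (0.937). Slc30a2 (0.944), Serhl (0.936) and Col6a3 (0.928) were most like Sp5, and Cryz (0.948), Timp3 (0.941) and Ppp1r14d (0.934) most like Cdx1. Col6a3, a collagen chain, and Timp3, a protease inhibitor of the matrix, are both on the feeder marker list. Most like Wnt8a were Arhgef3 (0.892), Fzd6 (0.885) and Kdf1 (0.885), of which Fzd6 is a Wnt receptor. Tasp1 (0.890), Rcor2 (0.870) and Dancr (0.865) were most like Lef1. The closest genes to Nkd1, 1700007L15Rik (0.764), Thegl (0.738) and Sall2 (0.716), and to Wnt3, Zfp354c (0.704), Mettl7a2 (0.697) and Arid2 (0.691), were less alike. For the mean of the 7 genes, each centred on its own mean, they were Mtif3 (0.920), C77080 (0.914) and Cpped1 (0.906).

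Of the other Wnt pathway genes on the lists, 77 were measured. Between serum and 2i in transgene cells 6 were called higher and 15 lower, where 18.2% of all genes were called, and their median difference was -0.095 beside 0.005 over all genes. With MEK inhibitor in both media 5 were higher and 6 lower in knockout-labelled cells, and 5 higher and 6 lower in wild-type cells, a share close to that of all genes. Across the control-signal sets 12 were higher and 20 lower in knockout-labelled, and 14 higher and 19 lower in wild-type serum cells.

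Among 19 ligands, Wnt8a and Wnt3 included, 0 rose and 2 fell in transgene serum cells: Wnt5b (-1.77, adjusted p = 0.00061) and Wnt9a (-0.86, adjusted p = 0.005, limma), a call lost for Wnt9a when probe sets were averaged or without the first array of either group (adjusted p = 0.054 to 0.422). Of 6 genes for secretion and agonists, Wls, which carries Wnt proteins to the cell surface, fell by 1.63 in transgene cells, and by 1.31 in knockout-labelled and 0.77 in wild-type cells with MEK inhibitor in both media, the last a call lost with only the arrays of those 2 groups (adjusted p = 0.0661). The R-spondin Rspo1, a secreted agonist, rose by 2.57 in transgene cells, and by 1.78 in knockout-labelled and 1.47 in wild-type cells with MEK inhibitor, and that last call was lost without the second 2i array (1.09) or the first array of the serum medium (1.15). Porcn, which attaches the lipid that Wnt proteins need, rose by 2.06 in transgene cells, while with MEK inhibitor it differed by -0.95 in knockout-labelled (adjusted p = 0.0576) and -0.29 in wild-type cells (adjusted p = 0.662), and in knockout-labelled serum cells, across the control-signal sets, it was lower than in 2i (-2.16, adjusted p = 2.6e-05, limma).

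Of 18 receptors and coreceptors 3 rose and 4 fell in transgene cells. Fzd7 rose by 1.15, and by 1.02 in wild-type cells with MEK inhibitor in both media. Lgr5, an R-spondin receptor and itself a target, fell by 2.39 in transgene cells and by 1.99 in knockout-labelled cells with MEK inhibitor, but its mean over probe sets differed by only -0.41 and -0.84 and was not called (adjusted p = 0.65 and 0.321). Of 11 measured nuclear factors 0 were called in transgene cells in limma (3 at an unadjusted p under 0.05). Tcf7l1, the repressor of the family that dominates in stem cells, was higher with serum and MEK inhibitor than in 2i, by 0.70 in wild-type and 0.46 in knockout-labelled cells. The knockout-labelled call was lost without the second 2i array or without either array of the serum medium (adjusted p = 0.0579 to 0.213).

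Of 16 other known beta-catenin targets measured, 2 rose and 5 fell in transgene serum cells, with a median of -0.19 beside 0.005 over all genes. Dkk1, a secreted inhibitor that blocks the Lrp coreceptors, fell by 1.23, although its probe sets averaged -0.60 (adjusted p = 0.223). Myc rose by 1.69 and Bmp4, a growth factor of another pathway, by 2.33. With MEK inhibitor in both media 1 rose and 0 fell in wild-type cells, and 1 rose and 1 fell in knockout-labelled cells. The risen gene was Myc in both (1.98 in wild-type and 1.19 in knockout-labelled cells, with an adjusted p of 0.0968 for the knockout-labelled cells when only the arrays of its 2 groups were fitted). The 0 of 16 and 1 of 16 called lower stand beside 7.06% of all genes called lower in wild-type and 6.59% in knockout-labelled cells. At day 2 of EpiLC 1 of the 16, Myc (4.38), was higher and 7 were lower, among them Notum (-4.49), which encodes an enzyme that inactivates Wnt proteins.

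**Figure D5:**
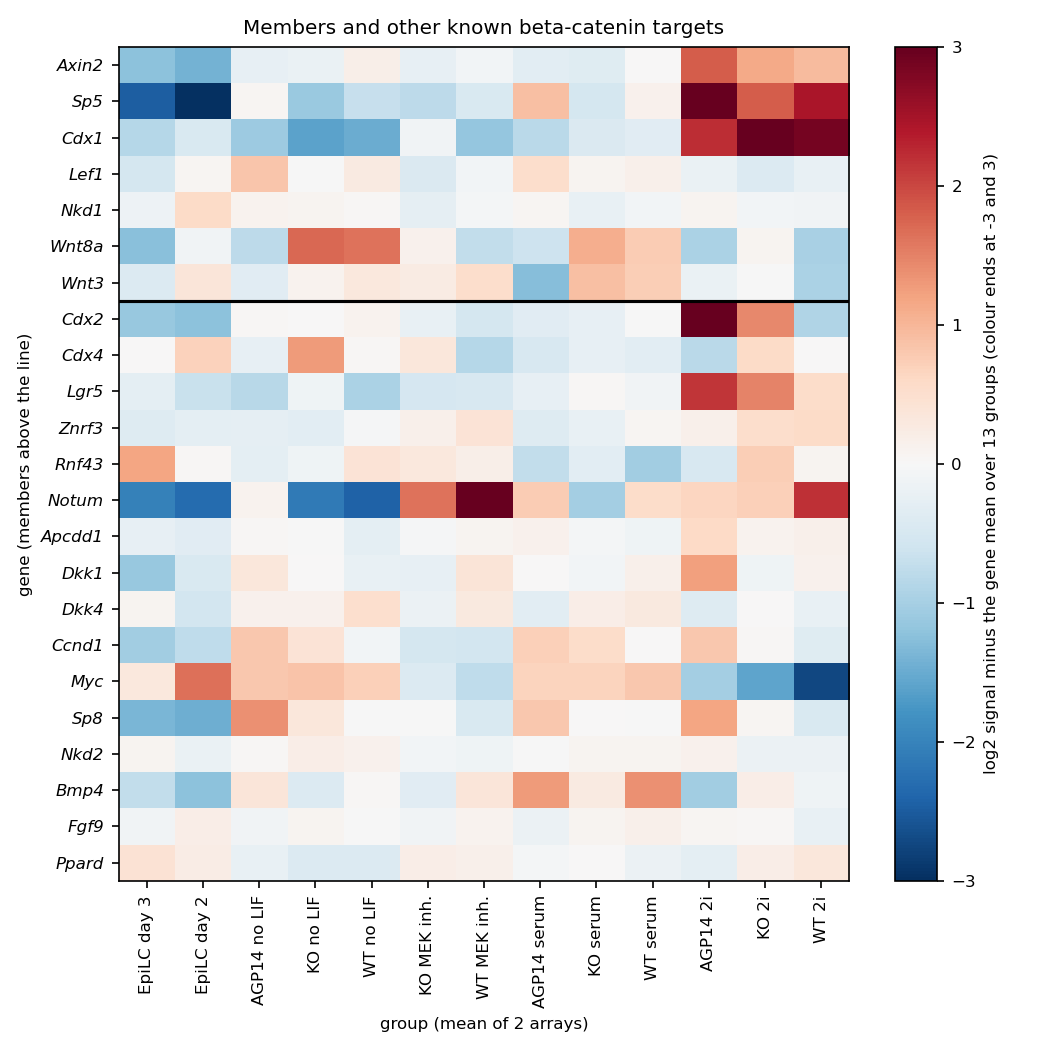
Log2 signal minus the gene's mean over 13 groups (colour, cut at -3 and 3) for the 7 genes above the line and 16 other known beta-catenin targets below it (rows), in 13 groups (columns, means of 2 arrays). Axin2, Sp5 and Cdx1 are red in the 3 groups with 2i at the right, and most of the other targets are not.

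Genes that Tcf7l1 is known to repress in stem cells, among them naive pluripotency factors, numbered 8. Of these, Esrrb, Klf2, Tfcp2l1, Nr0b1 and Tbx3 are also among the naive markers, and Nanog is among the general pluripotency markers. The results below are thus not separate from those of the marker lists. In serum with MEK inhibitor against 2i, 0 rose in limma, 0 fell in wild-type (1 of 8 at an unadjusted p under 0.05) and 2 fell in knockout-labelled cells, Tfcp2l1 (-1.11) and Tbx3 (-1.18), and these 2 were lost without any one of the 4 arrays (adjusted p = 0.0551 to 0.149). In transgene cells 1 of 8, Tfcp2l1 (-0.86, adjusted p = 0.047), fell in serum, and it too was lost without any one array (0.113 to 0.21). All 8 were called higher in transgene than in knockout-labelled cells in serum (5.23% of all genes) and without LIF (8.09%). Among them were, without LIF, Nr5a2 (4.43) and Klf2 (2.00). The mean of the 9 naive markers, Prdm14 included, was also higher without LIF, at 9.87 in transgene and 7.54 in knockout-labelled cells. In the same comparison without LIF, of the 77 pathway genes 6 were higher and 7 lower, among them Notum (2.25), Fzd5 (1.23), Porcn (2.33) and Fzd6 (-1.22). Of 10 primitive streak genes measured, 0 were called between transgene serum and 2i, 0 with MEK inhibitor in either genotype, and 0 between transgene and knockout-labelled cells without LIF, in limma. At an unadjusted p under 0.05 there were 2 in transgene cells, 0 in knockout-labelled and 1 in wild-type cells with MEK inhibitor, and 2 between transgene and knockout-labelled cells.

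In the 2i comparison of knockout-labelled with wild-type cells, 6 of the 77 pathway genes were higher and 1 lower, beside 9.15% of all genes. Porcn (2.08, adjusted p = 0.00036), Wnt5b (1.47), Wls (1.05) and the R-spondin receptor Lgr4 (0.68) were higher, and the corepressor Tle3 was lower (-0.56). All of these calls were lost when only the 4 arrays of the comparison were fitted (adjusted p = 0.0512 to 0.204), and that of Wnt5b also without the first knockout-labelled or the first wild-type array (0.0779 and 0.14). The central effector gene Ctnnb1 itself averaged between 12.45 and 12.76 in all 13 groups.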

How the data were processed

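Labelled cRNA of 26 samples, 2 in each of 13 groups, was hybridised to 1-colour arrays, per the labels' protocols. The authors deposited 1 value per probe set on a log2 scale. Base 2 was inferred from the highest value, 13.89. The sources used here give no background correction, normalization or summarisation, and no detection calls or scan dates. Of 45100 probe sets, 64 are controls, 34944 carry 1 gene symbol in the platform annotation, 932 several and 9160 none. They gave 18193 genes, each by its probe set of highest mean, and 9010 of these had more than 1. The number of arrays limits the precision.

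Differences were fitted with limma 3.58.1 (R 4.3.3) on the deposited log2 values over all groups, so that all share 1 estimate of the spread (13 residual degrees of freedom). eBayes used an intensity trend, and Benjamini-Hochberg adjustment ran over all genes, with calls at an adjusted p under 0.05. The script was tested on simulated data. Tables and figures were made in Python 3.11.15 (numpy 2.4.6, pandas 2.3.3, matplotlib 3.10.9). Of each list, the genes named are among the 4 with the smallest p that passed in that comparison, and of each likeness search the 3 with the highest Pearson correlation. Lists overlap: among others, Lgr5, Znrf3, Dkk1, Notum, Esrrb, Klf2, Tfcp2l1, Nr0b1, Tbx3, Nanog, Zfp42, Pdgfra and Foxa2 are in more than 1. Outside that rule, Ctnnb1 was named after its values were seen, and the heatmap draws a whole list. Tcf7, Kremen2, T and Fbn1 were not matched and are not used here. The members and lists were chosen with earlier results of these data known. The alternatives were quantile normalization, averaging probe sets, no intensity trend, fitting the compared groups alone, replicate blocks and leaving out each array. Another left out genes whose highest group mean was under 5, a limit that Cdx1 passed only through its 2i groups. Wnt8a passed it only through groups in serum with or without LIF, and Wnt3 did not pass it. A further alternative, chosen after seeing the data, fitted only arrays of 1 control-signal set.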

Additional observations from a re-analysis of the deposited data

How the results depend on the processing

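With arrays of the compared groups only, 1 of the 3 member calls within serum media, 0 of the 1 between knockout-labelled and wild-type cells, and 5 of the 8 in EpiLC passed. The single knockout call was also at 0 with arrays of the same control-signal set only, a fit chosen after seeing the data. Under the other alternatives, single arrays left out aside, these counts, and those against 2i (21, with 17 to 21 in the alternatives), for transgene against knockout-labelled cells (10, with 8 to 10) and for transgene against wild-type cells (5, with 4 to 6), stayed within 1.5 times. With single arrays left out, not all counts did. Leaving out 1 array at a time gave 19 to 22 calls against 2i, 1 to 4 within serum, 0 to 1 between knockout-labelled and wild-type cells, 7 to 10 and 3 to 5 for transgene against knockout-labelled and against wild-type cells, 4 to 7 in EpiLC and 0 to 1 for the interaction terms. An array left out leaves its group with 1, assumed to vary like the other groups. The cause of these changes was not tested. No called difference changed sign: of 2429 alternative values, 100 had another sign, 0 of them for a called difference and 0 called after. By gene, the calls that held under all alternatives were 6 of 6 for Cdx1, 7 of 10 for Sp5, 4 of 8 for Axin2, 4 of 12 for Wnt8a, 2 of 8 for Lef1, 0 of 2 for Nkd1 and 0 of 2 for Wnt3. Same-numbered arrays of different genotypes did not deviate together (62 pairs, r from -0.0605 to 0.0475), while 11 of 16 pairs of the same genotype had r over 0.1 (0.0137 to 0.216). This is a hint, from the data only, of pairing within some genotypes, which 2 arrays a group cannot settle, so both fits are given. With the replicate block 20 calls were made against 2i, 3 within serum, 1 between knockout-labelled and wild-type cells, 10 and 6 for transgene against knockout-labelled and against wild-type cells, 7 in EpiLC and 0 for the interaction terms. With a random block for the number within a genotype (correlation 0.203) they were 21, 3, 1, 10, 5, 8 and 0. The 2 arrays a group, the unstated normalization and the control-signal sets limit all of these values. Signal over background could not be judged, since no detection calls were used.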

Other observations

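Between serum with and without MEK inhibitor, a comparison across the control-signal sets, 16 of 77 measured pathway genes were higher and 9 lower in wild-type cells, where 25.4% of all genes were called, and 16 higher and 8 lower in knockout-labelled cells, where 24.5% were, by limma. Notum, which encodes an enzyme that inactivates Wnt proteins, was higher with the inhibitor by 2.77 in wild-type and 2.63 in knockout-labelled cells. The DNA-binding factor Tcf7l2 was higher by 1.65 in wild-type and 1.66 in knockout-labelled cells, and Wls by 1.24 and 1.29 in the same order. The receptor Fzd7 was lower, by -0.99 in both. In these comparisons 19 and 17 of 26 feeder markers were also higher, and their part was not tested.

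In EpiLC at day 2, 12 of the 77 were higher and 27 lower than in wild-type 2i cells, another line in another medium, where 38.3% of all genes were called. Wnt5a (-2.79), the secreted inhibitor Dkk2 (-3.24) and the R-spondin Rspo3 (-3.54) were lower, and Rspo1 (3.45) was higher. From day 2 to day 3, 5 were higher and 7 lower, where 17.6% of all genes were called. Wls was higher by 1.53, and the noncanonical receptor Ror2 was lower (-1.44). None of the differences named here lost its call under any alternative that was run.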
